A study of Homo sapiens with 6 samples.

Results

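Classical mirtrons are miRNAs whose hairpin is a whole short intron. Splicing, rather than the nuclear RNase DROSHA, makes the ends of the hairpin, the intron lariat is opened by the debranching enzyme, and DICER then cuts out the 5p and 3p arms. The 5p arm therefore starts with the GU of a 5′ splice site and the 3p arm ends with the AG of a 3′ splice site, after a stretch rich in pyrimidines. The 10 mature miRNAs examined here were chosen by name, as hsa-miR-877-5p, hsa-miR-877-3p, hsa-miR-1225-5p, hsa-miR-1226-5p, hsa-miR-1226-3p, hsa-miR-1227-3p, hsa-miR-1228-5p, hsa-miR-1228-3p, hsa-miR-1229-3p and hsa-miR-1236-3p. They come from 7 hairpins and are 10 of the 2588 miRNAs listed in both count tables. Whether splicing makes each of these hairpins was not tested here.

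The libraries were made from A549, a line of human lung adenocarcinoma, in which METTL1, an enzyme that methylates guanosine at N7 (m7G), was knocked down by an inducible construct. Cells were taken after doxycycline (200 ng/ml) on day 5. The 3 input libraries held total RNA and the 3 m7G-RIP libraries held heat-denatured RNA immunoprecipitated with an anti-m7G antibody. Both groups carry the knockdown and the drug, so the comparison is of bound RNA with total RNA in knockdown cells, and no cells with METTL1 and no IgG control were analysed here. The study describes more than a single METTL1 shRNA and the labels do not say which was used. The culture text of the m7G-RIP samples describes the medium of Caco-2, an intestinal line, while their titles and cell line labels say A549.

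The input libraries held from 9155690 to 10753443 counts and the m7G-RIP libraries from 2649238 to 3106556. Nothing in the labels says that replicates were separate cultures, so p-values measure the spread between these libraries, which may be technical. The knockdown itself could not be checked, since the tables hold miRNAs and no METTL1 mRNA. Of 6 blood miRNAs, 5 were at 0 in every input library and 5 in every m7G-RIP library, and the liver miRNA miR-122-5p was at 0 throughout. The 4 miRNAs of intestinal epithelium summed to between 21703 and 22303 CPM in input and between 3110 and 3405 CPM in m7G-RIP. Most of this sum was miR-192-5p. miR-375 went the other way, from 106 to 111 CPM in input to between 159 and 224 CPM in m7G-RIP. The 2 neuronal miRNAs summed to between 495 and 609 CPM in input and between 93.7 and 130 CPM in m7G-RIP. Nearly all of this was miR-9-5p, as miR-124-3p was at most 2.37 CPM in any library. The 3 muscle miRNAs summed to between 9.07 and 11.8 CPM in input and between 0.535 and 117 CPM in m7G-RIP, the highest value being that of replicate 2. The part of such differences in the results below was not tested.

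All 7 hairpins filled an intron exactly. In GENCODE release 44 (GRCh38) the first and last base of each of the 7 hairpins were the first and last base of an annotated intron of the same strand, which was the case for 23 of 1562 hairpins in the RefSeq table (1.47%). MIR877 lies on chromosome 6 at 30584332 to 30584417 on the plus strand and is an intron of ABCF1, an ATP-binding protein of translation, in 4 transcripts. MIR1226 lies on chromosome 3 at 47849555 to 47849629 on the plus strand and is an intron of DHX30, an RNA helicase, in 6 transcripts. MIR1227 (chromosome 19 at 2234062 to 2234149, minus strand) is an intron of PLEKHJ1, and MIR1229 (chromosome 5 at 179798278 to 179798346, minus strand) is an intron of MGAT4B, an enzyme of N-glycan branching. MIR1225 (chromosome 16 at 2090195 to 2090284, minus strand) is an intron of PKD1, which encodes polycystin-1. MIR1228 (chromosome 12 at 57194504 to 57194576, plus strand) is an intron of the endocytic receptor gene LRP1, and MIR1236 (chromosome 6 at 31956839 to 31956940, minus strand) is an intron of NELFE, a subunit of the negative elongation factor. The hairpins were from 69 to 102 bases long and all 7 began with GU and ended with AG, as did 36 hairpins in all (2.30%). The 5p arm started at the first base of the intron in 6 of the 7, and the 3p arm ended at the last base in 6.

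The 2 hairpins with both arms measured are printed first, because they carry the comparison of the arms. The sequences are from RefSeq (GRCh38.p14), 5′ to 3′, with the mature 5p and 3p arms in capitals.
MIR877: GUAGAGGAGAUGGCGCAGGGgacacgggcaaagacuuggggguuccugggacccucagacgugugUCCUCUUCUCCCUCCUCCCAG
MIR1226: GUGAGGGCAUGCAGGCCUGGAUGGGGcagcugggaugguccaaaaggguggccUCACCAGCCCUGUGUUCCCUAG

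The 6 members that could be tested are printed next with the seed, bases 2 to 8, in capitals. The seed is the stretch by which a miRNA recognises most of its targets.
hsa-miR-877-5p: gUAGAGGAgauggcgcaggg
hsa-miR-1226-5p: gUGAGGGCaugcaggccuggaugggg
hsa-miR-877-3p: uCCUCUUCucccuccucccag
hsa-miR-1226-3p: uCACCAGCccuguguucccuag
hsa-miR-1227-3p: cGUGCCACccuuuuccccag
hsa-miR-1229-3p: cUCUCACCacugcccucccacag

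No seed was shared within the 10 members, and 0 other mature miRNAs of the RefSeq table had any of these seeds. The 2 arms had opposite base compositions. The 4 members from 5p arms held from 53.8% to 66.7% G, with a longest run of 3 to 6 G, whereas the 6 from 3p arms held from 4.76% to 18.2% G, with no 2 G in a row, and from 40.9% to 65% C. In hsa-miR-877-5p 11 of 20 bases were G and in hsa-miR-1226-5p 14 of 26, against 1 of 21 in hsa-miR-877-3p. Each mature sequence had 1 exact match in the primary chromosomes of the reference genome, at its own hairpin. Reads of a whole mature sequence without mismatches could therefore not be divided with another of these loci. Shorter reads were not checked.

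hsa-miR-877-5p was the one miRNA of the 6 tested members that was enriched with the anti-m7G antibody. It had 412, 424 and 253 counts in input replicates 1, 2 and 3, which are 46.5, 50.4 and 33.3 CPM after TMM scaling (CPM, counts scaled to an effective library size of 1000000). In m7G-RIP it had 1180, 1632 and 1984 counts, or 348, 512 and 531 CPM. Every m7G-RIP library lay far above every input library. Mean CPM was 43.4 ± 8.98 in input and 464 ± 101 in m7G-RIP (SD, n = 3). The log2 ratio was 3.42 (SE 0.24, 95% interval 2.88 to 3.96, edgeR adjusted p 3.38e-06), or 10.7-fold. This was the 15th highest (rank 15) of the log2 ratios of the 620 miRNAs that passed the expression filter, of which 23.5% were enriched at an adjusted p under 0.05. All 14 alternative settings kept the call, with log2 ratios from 3.08 to 3.96.

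The other arm of the same intron was not enriched past the threshold. hsa-miR-877-3p had 61, 64 and 113 counts in input (6.88, 7.61 and 14.9 CPM) and 55, 36 and 69 counts in m7G-RIP (16.2, 11.3 and 18.5 CPM). Input replicate 3 was high and overlapped the m7G-RIP libraries. The log2 ratio was 0.65 (SE 0.47, 95% interval -0.41 to 1.71, edgeR adjusted p 0.272). It was positive in each of the 14 alternatives, from 0.28 to 1.21, and past the threshold in 0 of them, the nearest being library size alone with an adjusted p of 0.0523.

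**Figure D1:**
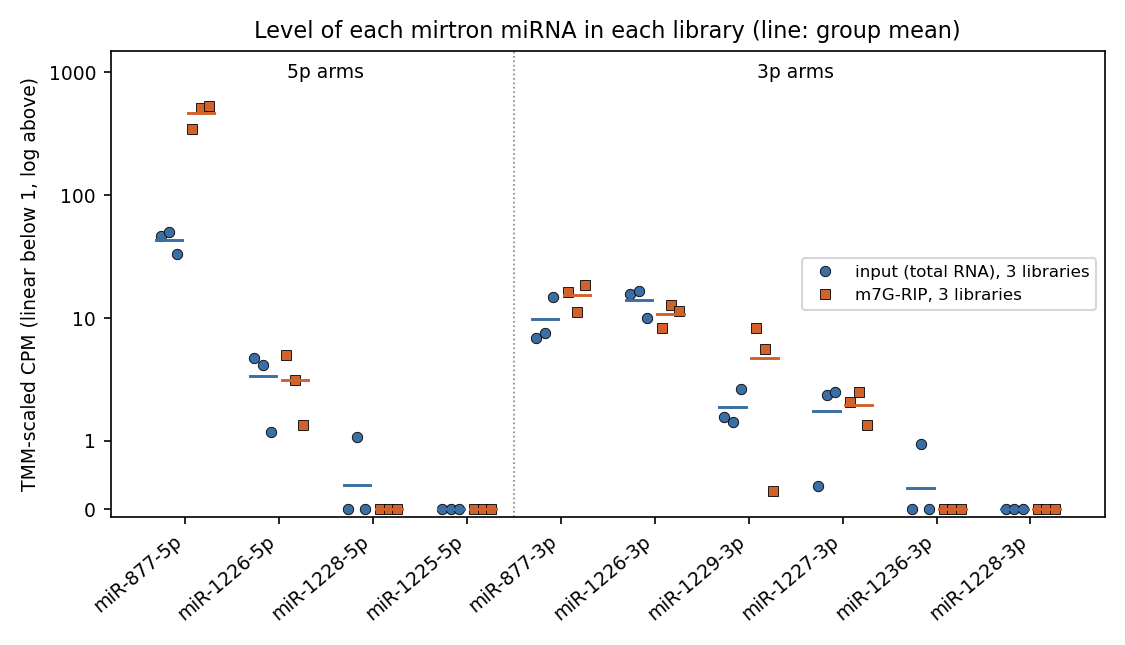
TMM-scaled CPM (y axis, linear below 1 and logarithmic above) of the 10 mirtron miRNAs in 3 input libraries (blue circles) and 3 m7G-RIP libraries (orange squares), with short lines at the group means. hsa-miR-877-5p lies between 33.3 and 50.4 CPM in input and between 348 and 531 CPM in m7G-RIP, whereas the groups of the other members overlap.

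Neither arm of miR-1226 differed between the groups past the threshold. hsa-miR-1226-5p, whose G content of 53.8% is close to the 55% of hsa-miR-877-5p, had 42, 35 and 9 counts in input and 17, 10 and 5 in m7G-RIP. These are 4.74, 4.16 and 1.18 CPM against 5.01, 3.14 and 1.34 CPM, so the groups overlapped throughout and replicate 3 was the lowest of each. The log2 ratio was -0.094 (SE 0.86, 95% interval -2.05 to 1.86, edgeR adjusted p 0.929), and its sign depended on the scaling and on single libraries. With library size alone, which raised the log2 ratios of all tested miRNAs by a median of 0.55, it was 0.48. hsa-miR-1226-3p had 140, 139 and 76 counts in input and 28, 41 and 43 in m7G-RIP, or 15.8, 16.5 and 9.99 CPM against 8.25, 12.9 and 11.5 CPM. Its log2 ratio was -0.38 (SE 0.43, 95% interval -1.34 to 0.59, edgeR adjusted p 0.485) and became 0.17 with library size alone.

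hsa-miR-1227-3p and hsa-miR-1229-3p were scarce and uneven. hsa-miR-1229-3p had 14, 12 and 20 counts in input and 28, 18 and 1 in m7G-RIP. These are 1.58, 1.43 and 2.63 CPM against 8.25, 5.65 and 0.268 CPM. By CPM, m7G-RIP replicates 1 and 2 were above every input library and replicate 3 was below all of them. The log2 ratio of hsa-miR-1229-3p was 1.32 (SE 1.05, 95% interval -1.06 to 3.69, edgeR adjusted p 0.316). It was 1.67 without m7G-RIP replicate 3 and 0.37 without m7G-RIP replicate 1. hsa-miR-1227-3p had 3, 20 and 19 counts in input and 7, 8 and 5 in m7G-RIP. The groups overlapped and the log2 ratio of 0.18 (SE 0.94, 95% interval -1.94 to 2.30, edgeR adjusted p 0.881) changed sign in alternatives, so no direction is given for it.

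The other 4 members did not pass the filter and were not tested. hsa-miR-1225-5p and hsa-miR-1228-3p had 0 counts in all 6 libraries. hsa-miR-1228-5p had 9 counts and hsa-miR-1236-3p had 8, each in input replicate 2 alone, and both were at 0 in m7G-RIP. A count of 0 allows up to 3 counts, which are from 0.339 to 0.394 CPM in an input library and from 0.803 to 0.942 CPM in an m7G-RIP library, counting error only. The 4 arms of these 7 hairpins that are not members (miR-1225-3p, miR-1227-5p, miR-1229-5p and miR-1236-5p) were not tested either. Of these, miR-1229-5p had 1 count in input replicate 3 and 14 in m7G-RIP replicate 3, and the other 3 were at 0 throughout.

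Across the members, 1 of 6 tested was enriched, beside 23.5% of all tested miRNAs, and 0 were depleted, beside 29.2%. DESeq2 and limma-voom also called 0 members depleted, and 0 had an unadjusted p under 0.05 in that direction with any of the 3 tools. The m7G-RIP libraries lay above every input library for 1 of the 6, beside 29.5% of all tested, and below for 0, beside 36.5%, so 1 of 6 did not overlap in either direction, beside 66.0%. The median log2 ratio of the 6 tested members was 0.41 and that of all 620 was -0.074. By arm, the 2 tested 5p members had a median of 1.66 and the 4 tested 3p members a median of 0.41. The difference of these medians, 1.25, was -0.29 with no filter, 0.30 without input replicate 3 and 3.27 when every library had to hold 10 or more counts, so no direction is given for it. Among all tested names the median was -0.13 for 237 5p arms, of which 26.2% were enriched and 32.5% depleted, and -0.45 for 252 3p arms, of which 18.7% were enriched and 32.1% depleted. With 2 and 4 members, and scarce members removed by the filter, the medians of the arms describe these miRNAs alone.

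**Figure D2:**
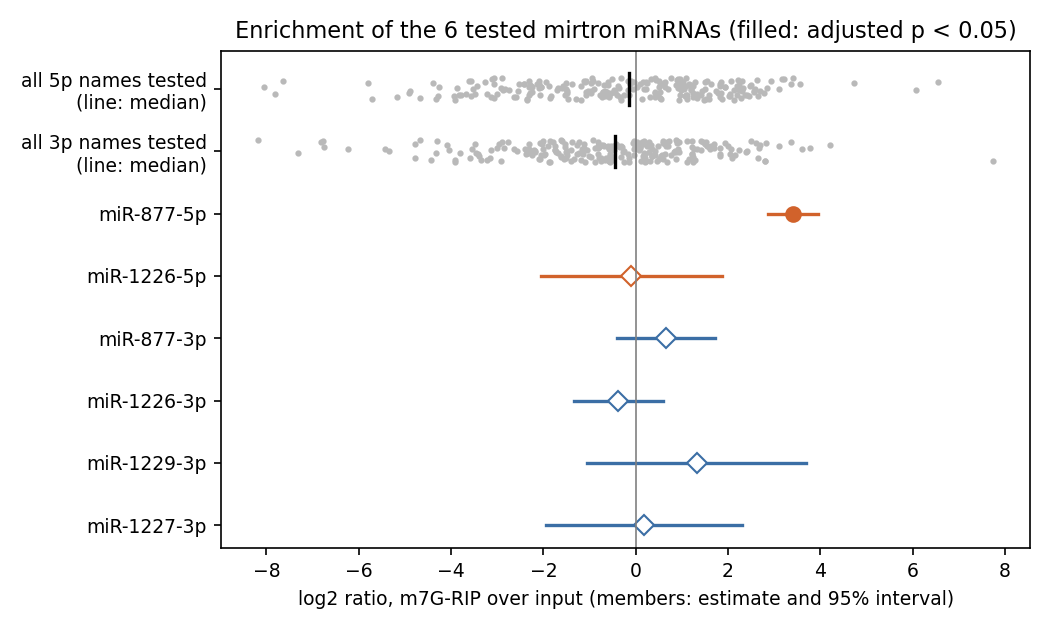
Log2 ratio of m7G-RIP over input (x axis) for the 6 tested mirtron miRNAs, with 95% intervals from edgeR, below all tested 5p and 3p names (grey points, black line at the median). The filled orange point, hsa-miR-877-5p at 3.42, lies to the right of nearly all grey points, and the intervals of the other 5 members include 0.

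The most abundant member was hsa-miR-877-5p in both groups. A read covers a whole mature miRNA of 20 to 26 bases, so CPM was not divided by length. In input, hsa-miR-877-5p (43.4 CPM) stood above hsa-miR-1226-3p (14.1), hsa-miR-877-3p (9.78), hsa-miR-1226-5p (3.36), hsa-miR-1229-3p (1.88) and hsa-miR-1227-3p (1.74). The libraries of hsa-miR-1226-3p and hsa-miR-877-3p overlapped, as did those of the last 3. In m7G-RIP, the order was hsa-miR-877-5p (464 CPM), hsa-miR-877-3p (15.3), hsa-miR-1226-3p (10.9), hsa-miR-1229-3p (4.72), hsa-miR-1226-5p (3.16) and hsa-miR-1227-3p (1.97). Neighbouring pairs after hsa-miR-877-5p overlapped, except that hsa-miR-1226-3p and hsa-miR-1229-3p only met at 8.25 CPM in replicate 1. The 10 members together took 0.00618% ± 0.000791 of the counts in input and 0.0602% ± 0.00944 in m7G-RIP (SD, n = 3). hsa-miR-877-5p made up 57.5% ± 5.17 of the members' counts in input and 92.5% ± 2.39 in m7G-RIP (SD, n = 3).

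The ratio of the 2 arms of a hairpin within a library does not depend on how libraries are scaled, and was used to ask whether the antibody recovered the arms unequally. In input the 5p arm of miR-877 took 87.1%, 86.9% and 69.1% of the hairpin's counts in replicates 1, 2 and 3, with 95% Wilson intervals of 83.8% to 89.8%, 83.6% to 89.6% and 64.2% to 73.6%. In m7G-RIP it took 95.5% (94.2% to 96.6%), 97.8% (97.0% to 98.4%) and 96.6% (95.8% to 97.3%). The m7G-RIP shares were all higher, and input replicate 3 stood below the other 2 by more than counting error. There were 6.75, 6.63 and 2.24 reads of the 5p arm per read of the 3p arm in input, and 21.5, 45.3 and 28.8 in m7G-RIP.

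This shift of miR-877 toward the 5p arm was 2.70 on the log2 scale (SE 0.55, 95% interval 1.45 to 3.96, limma adjusted p 0.00447 over 139 hairpins with both arms tested), or 6.51-fold. An exact permutation test (two-sided) gave p = 0.1, which is as low as 3 against 3 libraries allow. Without input replicate 3 the shift was 2.18 (limma adjusted p 0.0119). Among the 139 hairpins, 26.6% shifted toward the 5p arm and 17.3% toward the 3p arm, and the shift of miR-877 was the 21st highest (rank 21).

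In miR-1226 the 3p arm was the more abundant and no shift was detected. The 5p arm took 23.1%, 20.1% and 10.6% of the counts in input and 37.8%, 19.6% and 10.4% in m7G-RIP, from 45 to 182 counts of both arms per library. The values overlapped, and replicate 3 was the lowest of each group. The shift was 0.35 (SE 0.82, 95% interval -1.54 to 2.23, limma adjusted p 0.749, exact permutation p 0.7). The shift of miR-877 exceeded that of miR-1226 by 2.36. The exact permutation test of this difference gave the two-sided p of 0.1 that is the minimum for 3 against 3 libraries, so this test could not pass 0.05 whatever the values.

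**Figure D3:**
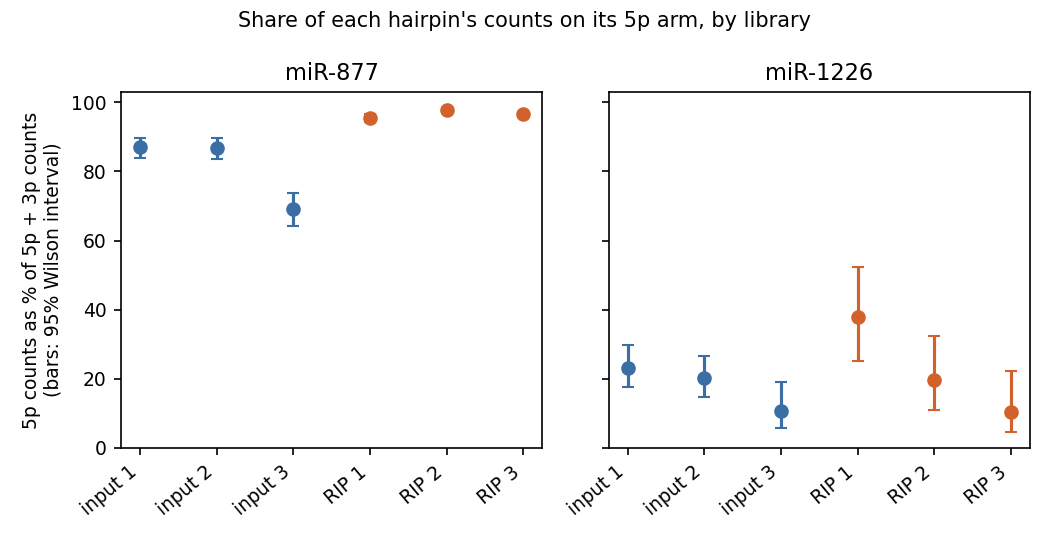
Counts of the 5p arm as a percentage of the counts of both arms (y axis) for miR-877 (left) and miR-1226 (right) in 3 input (blue) and 3 m7G-RIP (orange) libraries, with 95% Wilson intervals. For miR-877 the share is from 69.1% to 87.1% in input and from 95.5% to 97.8% in m7G-RIP, and for miR-1226 the groups overlap.

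The members were set against G content because m7G is a modified G and the 2 arms of a mirtron differ in it. Of the 620 tested miRNAs, 557 (89.8%) had a mature sequence in the RefSeq table. Among these, 60.4% of the 53 miRNAs with at least 50% G were enriched, with a median log2 ratio of 2.04, against 10.1% of the 148 with less than 20% G, with a median of -0.78. Both tested 5p members fell in the first class and all 4 tested 3p members in the other. hsa-miR-877-5p lay above the median of its class and hsa-miR-1226-5p near the lower end of it, which reached -1.21. The 3p members, at log2 ratios of -0.38 to 1.32, each lay above the median of their class. Over the 557 miRNAs Pearson's r was 0.410 for G content and -0.0912 for C content. These miRNAs share the same 6 libraries and are not independent, and the correlation is given as a description. Some miRNAs with at least 50% G passed the filter only through m7G-RIP, where they were high. miR-6734-5p, for example, had 2, 0 and 0 counts in input. The part of this in the share, median and correlation was not tested.

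**Figure D4:**
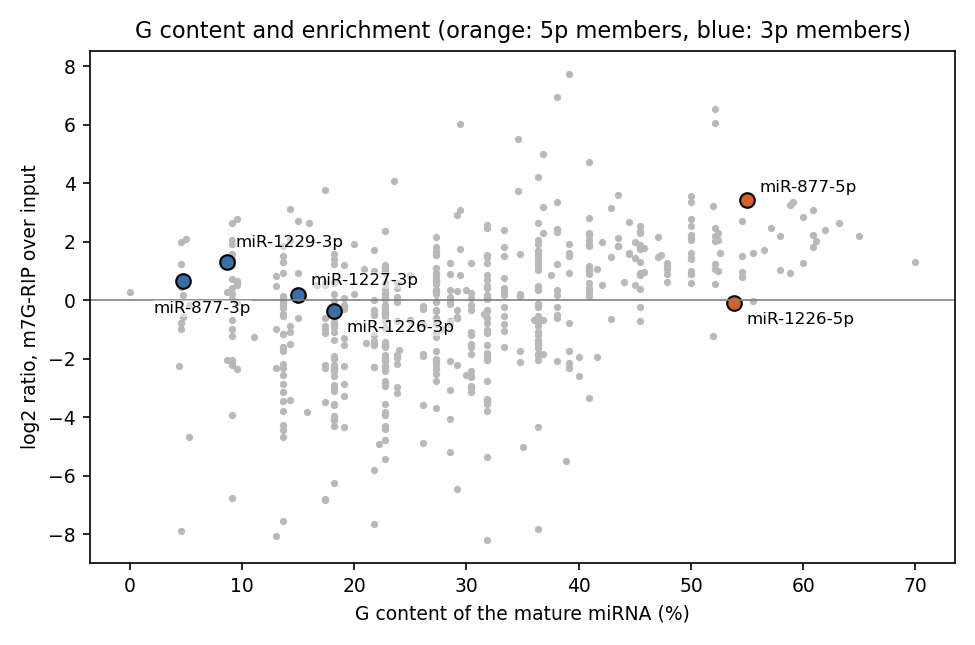
Log2 ratio of m7G-RIP over input (y axis) against the G content of the mature miRNA (x axis, percent) for 557 tested miRNAs (grey), with the 5p (orange) and 3p (blue) mirtron members marked. The 2 5p members have nearly the same G content, at 53.8% and 55%, and log2 ratios of -0.094 and 3.42.

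Within hairpins the same comparison could be made between arms. Both mirtron hairpins were far richer in G on the 5p arm, by 50.2 percentage points in miR-877 and 35.7 in miR-1226. Over all 139 hairpins, 26.6% shifted toward the 5p arm and 17.3% toward the 3p arm. Of 22 hairpins whose 5p arm exceeded the 3p arm by at least 30 points, 13 shifted toward the 5p arm in m7G-RIP and 1 toward the 3p arm. Shifts in this class ran from -0.63 to 5.77, with a median of 1.95. miR-877 lay above that median and miR-1226 below it. Of 24 hairpins richer in G on the 5p arm by 10 to 30 points, 10 shifted toward the 5p arm and 2 toward the 3p arm. The median shift of this class was 1.51. Where the arms were within 10 points of each other, 5 of 50 hairpins shifted toward the 5p arm and 14 toward the 3p arm, and the median shift was -0.74. Where the 3p arm was the richer by at least 10 points, 5 of 26 hairpins shifted toward each arm. The median shift there was 0.0017, so neither direction prevailed in this class. Sequences of both arms were matched for 122 of the 139 hairpins (87.8%). Over these 122, Pearson's r between the G difference and the shift was 0.464, given as a description.

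**Figure D5:**
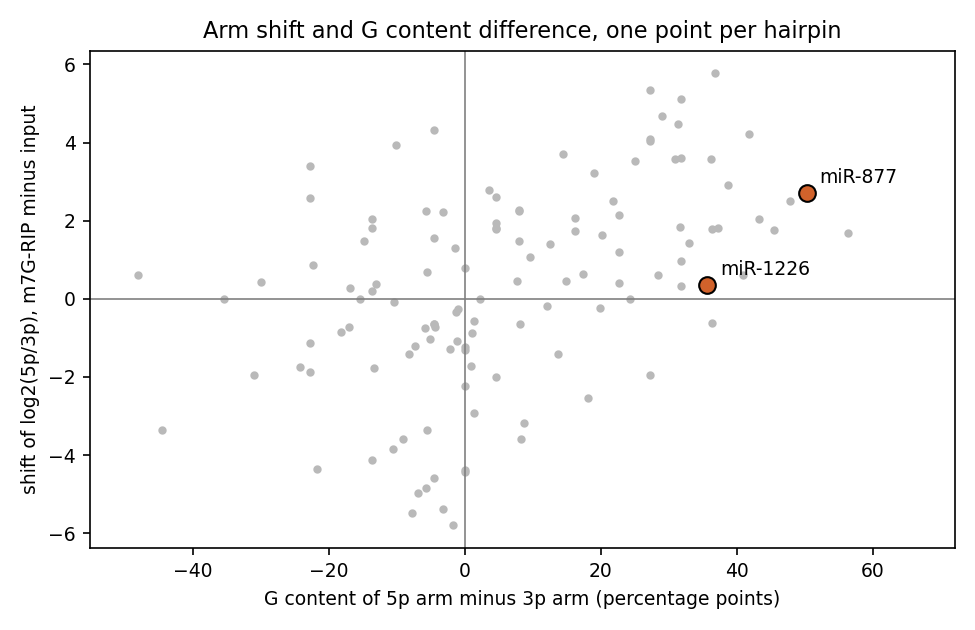
Shift of log2(5p/3p) from input to m7G-RIP (y axis) against the G content of the 5p arm minus that of the 3p arm (x axis, percentage points), with 1 grey point per hairpin (122 hairpins, the 2 mirtrons in orange included). miR-877 sits at 50.2 points with a shift of 2.70 and miR-1226 at 35.7 points with a shift of 0.35.

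Other mirtrons, capped precursors and a block of later-numbered entries were examined beside the members. Of 8 further arms of mirtrons with neighbouring names (miR-1224, miR-1233, miR-1237 and miR-1238), 2 were tested and both were enriched, beside 23.5% of all tested miRNAs. Among all tested arms of hairpins that fill an annotated intron, members included, 3 of 9 were enriched. miR-1224-5p had 98, 90 and 59 counts in input and 160, 168 and 136 in m7G-RIP, which gave 2.20 on the log2 scale (SE 0.31, edgeR adjusted p 0.000287). miR-1237-3p had 38, 15 and 19 counts against 23, 61 and 39, which gave 2.07 on the log2 scale (SE 0.68, edgeR adjusted p 0.0282), and is a 3p arm. Its call was lost without input replicate 2 (1.76, adjusted p 0.113), input replicate 3 (1.88, adjusted p 0.0945), m7G-RIP replicate 2 (1.42, adjusted p 0.126) or m7G-RIP replicate 3 (1.93, adjusted p 0.0510), with the replicate number as a block (2.04, adjusted p 0.103) and with no filter (1.76, adjusted p 0.112). The 5p share of miR-1224 was 91.6% ± 5.09 in input and 92.0% ± 7.08 in m7G-RIP (SD, n = 3, exact permutation p 0.9), although its 3p arm had as few as 1 and at most 29 counts.

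The miR-320 family and miR-484 also bypass DROSHA, but their precursors are made directly by transcription and carry a 5′ cap. The study's protocol removed caps before immunoprecipitation, and the part of caps in the values below was not tested. Of the 6 listed miRNAs, 5 were enriched, beside 23.5% of all tested miRNAs, and the median log2 ratio was 1.83. miR-320a went from 6817 to 22452 CPM (log2 ratio 1.72, edgeR adjusted p 1.51e-06) and miR-320b from 451 to 1728 CPM (log2 ratio 1.94, edgeR adjusted p 1.69e-06), whereas miR-484 stood at -0.37 on the log2 scale (edgeR adjusted p 0.0715). The miR-320 members are near-identical, so reads may be divided among them. Of 354 entries numbered from miR-6715 to miR-6895, 25 were tested and 9 were enriched, beside 23.5% of all tested miRNAs. Their median log2 ratio was 1.42. Some of the enriched entries were near 0 in input and passed the filter only through m7G-RIP, where they were high. The filter may thus raise this count and median, which was not tested. The best measured was miR-6724-5p, from 34.0 to 120 CPM (log2 ratio 1.83, edgeR adjusted p 0.00260). Of 164 RefSeq hairpins with these numbers, 7 (4.27%) filled an annotated intron exactly. Differences between hsa-miR-877-5p and the miRNAs of these lists were not tested.

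The 5 tested miRNAs whose levels over the 6 libraries were most like those of hsa-miR-877-5p were miR-1275, miR-3182, miR-193b-5p, miR-3916 and miR-6077. Likeness was the Euclidean distance of log2 CPM, with a prior count of 2 to keep zeros finite, centred on each miRNA's own mean. It was from 0.376 for miR-1275 to 0.971 for miR-6077, against a median of 4.85 over 619 miRNAs. miR-1275 went from 40.8 to 390 CPM, close to the levels of hsa-miR-877-5p itself, and held 58.8% G. miR-3182, at 29.4% G, went from 130 to 1104 CPM. miR-6077 had 0 counts in every input library and a mean of 2.66 CPM in m7G-RIP, so no fold is given for it. It passed the filter through m7G-RIP alone, and its likeness to hsa-miR-877-5p depends on the prior count.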

How the data were processed

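Small RNA libraries of A549 METTL1 knockdown cells were compared between total RNA (input, n = 3) and m7G-RIP (n = 3), grouped by sample title. The deposited values are unnormalized read counts for each mature miRNA. Per their methods, adaptors were trimmed with Trimmomatic, reads mapped by STAR to GRCh38 (1 mismatch, up to 10 alignments) and counted with featureCounts on miRBase; the labels name Bowtie2 as aligner. Counting of multi-mapped reads is not stated. Counts carry no molecular identifiers, and the RNA recovered was unknown, so ratios are relative to other miRNAs.

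Differences between groups were tested in R 4.3.3 by edgeR 4.0.16 (TMM, default filter by group, robust quasi-likelihood F test). Arm shifts were tested with limma 3.58.1 on log2((5p + 0.5)/(3p + 0.5)). P-values were adjusted by Benjamini-Hochberg over all miRNAs or hairpins, at a threshold of 0.05, and the code was tested on simulated counts. Replicates differed by more than counting noise (chi-square per degree of freedom from 22.2 to 112). Mature sequences were matched for 88.1% of names. Alternatives covered scaling, filter, tool (DESeq2 1.42.0, limma-voom), a replicate block and single libraries.

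The members and lists were chosen with earlier results of these data known. Named miRNAs are the 10 members, the best measured of each list, the 5 nearest to miR-877-5p and some markers of other tissues. The G content classes and the intron matching were chosen after the data were seen.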

Additional observations from a re-analysis of the deposited data

How the results depend on the processing

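The count of enriched members stayed at 1 and that of depleted members at 0 in all 14 alternatives, and miR-877-5p was past the threshold in each, from 3.12 to 3.96 with all libraries in and from 3.08 to 3.49 without single libraries. Its arm shift was past the threshold in all 10 alternatives, from 2.68 to 2.77 and, without single libraries, from 2.18 to 2.97. Members that changed sign were never past the threshold. miR-1226-5p was 0.48 when scaled by library size alone and 0.39 when the 10 most abundant miRNAs were left out of the sizes, miR-1226-3p was 0.17 and 0.071 in these settings, and both settings raised all log2 ratios, by medians of 0.55 and 0.45. miR-1227-3p was -0.067 with no filter. Without single libraries, miR-1226-5p ran from -0.81 to 0.21, miR-1227-3p from -0.21 to 0.17, and the arm shift of miR-1226 from -0.25 to 0.89. The median of 5p members minus that of 3p members, 1.25, was -0.29 with no filter, which adds miR-1228-5p and miR-1236-3p. It was 3.27 with at least 10 counts in every library, which leaves 3 members, 1.11 with limma-voom, and from 0.30 (without input replicate 3) to 1.36 without single libraries. The causes of the limma-voom and block values were not tested.

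Replicate numbers were treated as names that do not pair libraries, as deviations from group means correlated at -0.0433, -0.101 and 0.0641. With the replicate block miR-877-5p was 3.41, the median difference 1.09 and the arm shift of miR-877 2.70 (adjusted p 0.0149), and it changed no member's call. The filter of 10 counts in all libraries gave no value for miR-1226-5p, miR-1229-3p, miR-1227-3p or the arm shift of miR-1226, and miR-1227-3p had none without an input library. The tested members under 5 CPM in both groups had 95% intervals over 3 log2 units wide, and the part of depth in this was not tested.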
